A study of Mus musculus with 46 samples.

Results

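The 36 genes described here encode the enzymes and regulators of sterol and fatty acid synthesis, and they were followed in single mouse ovarian follicles through the first 8 h after an ovulatory stimulus. They were chosen by name, as genes of the cholesterol pathway and lipid synthesis genes under the sterol regulatory element binding proteins (SREBPs), by a rule that uses no measured value but was written with earlier results of these data known. Of the 25147 genes in the count table they form 36, in 3 groups: 19 enzymes of the sterol branch, 5 regulators, and 12 genes of the fatty acid branch. All 36 passed the filter on low counts that left 8629 genes to test. Each library held the polyadenylated RNA of 1 follicle from CD-1 mice, grown for 8 days in alginate with 10 mIU/ml recombinant follicle-stimulating hormone. On day 8 the follicles were freed from the gel and moved to medium with 1.5 IU/ml human chorionic gonadotropin (hCG), 10 ng/ml epidermal growth factor, 10 mIU/ml recombinant follicle-stimulating hormone and 10% fetal bovine serum. They were snap-frozen at 0 h (9 follicles), 1 h (13), 4 h (13) or 8 h (11). Batch 2 held the whole 0 h group, with 3 follicles each from 1 h and 4 h. Batch 1 held 10 at 1 h and 11 at 8 h, which the descriptions place on plate 1, and 10 at 4 h on plate 2. The labels describe no matched follicles without hCG, so every comparison is between times, and serum, itself a source of cholesterol and fatty acids, was in the hCG medium and not in the growth medium. The labels do not tie follicles to animals, and p-values measure the spread between follicles.

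Cells make cholesterol from acetyl-CoA by way of mevalonate, farnesyl diphosphate, squalene and lanosterol, and the same acetyl-CoA feeds fatty acid synthesis, elongation and desaturation. SREBP2, encoded by Srebf2, mainly drives the sterol genes, and SREBP1, encoded by Srebf1, mainly the fatty acid genes. When sterol is plentiful, INSIG proteins hold the escort protein SCAP and its bound SREBP in the endoplasmic reticulum. When sterol is short, SREBP travels to the Golgi, is cut, and enters the nucleus. In the follicle, cholesterol from uptake and from synthesis is the substrate for steroid hormones, and hCG, acting on the receptor for luteinizing hormone, turns granulosa cells toward progesterone.

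Library totals ranged from 241442 to 5185044 counts, and 3332 genes with counts in batch 1 had none in the 6 libraries of batch 2 after hCG. Those genes held between 22.6% and 46.2% of the counts of a 0 h library, and none of the 36 was among them. Without them, the 36 genes together took a median of 1.04% of counts at 0 h, 0.727% (batch 1) and 0.802% (batch 2) at 1 h, 0.474% and 0.352% at 4 h, and 0.895% at 8 h. Granulosa markers were abundant throughout by their sum, with a summed TPM (transcript abundance scaled for gene length and library total) that had a median of 26886 at 0 h, 26783 at 1 h and 25696 at 4 h in batch 1, and 13518 at 8 h. In batch 2 the sum had a median of 22687 at 1 h and 15212 at 4 h. Of the 7 granulosa markers tested, 5 fell and none rose from 1 h to 4 h (median log2 fold change -2.79), 4 fell and 1 rose from 4 h to 8 h (-0.64), and all 7 were lower at 8 h than at 0 h (-2.74). In the order of 0 h, then 1 h, 4 h and 8 h of batch 1, medians were 75.7, 869, 554 and 206 for smooth muscle markers and 223, 613, 602 and 370 for theca and stroma markers. The adipocyte markers Adipoq and Cidec were at 0 in every library, and the 4 adipocyte markers summed to at most 15.6. What these shifts of cell markers contribute to the changes below was not tested, and in whole follicles fewer cells of a type and less RNA per cell cannot be told apart.

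Promoters were read for 30 of the 36 genes from RefSeq windows on GRCm38.p6, from 250 bases before to 50 bases after a gene start, giving 19 windows for 16 sterol genes, 10 for the 5 regulators and 9 for 9 fatty acid genes. The 4 shown were picked because their genes carry the time courses described below. Hmgcs1 and Insig1 were high at 1 h and lower at 4 h. Lss was highest at 8 h, and Acly rose at 4 h when most others fell. Capitals mark the SREBP consensus TCACNCCAC (1 match, in Hmgcs1) and the CCAAT box, the site of the SREBP partner NF-Y, read on either strand (CCAAT or ATTGG). The windows are chr13:119690101-119690400 (plus strand) for Hmgcs1, chr5:28071162-28071461 (plus) for Insig1, chr10:76531355-76531654 (plus) for Lss and chr11:100527951-100528250 (minus) for Acly.
Hmgcs1: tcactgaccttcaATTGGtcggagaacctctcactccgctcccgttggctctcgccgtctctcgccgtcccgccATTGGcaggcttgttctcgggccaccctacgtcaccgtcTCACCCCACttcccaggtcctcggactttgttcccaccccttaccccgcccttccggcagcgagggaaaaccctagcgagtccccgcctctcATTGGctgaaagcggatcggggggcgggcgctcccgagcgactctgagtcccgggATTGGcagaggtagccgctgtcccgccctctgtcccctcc
Insig1: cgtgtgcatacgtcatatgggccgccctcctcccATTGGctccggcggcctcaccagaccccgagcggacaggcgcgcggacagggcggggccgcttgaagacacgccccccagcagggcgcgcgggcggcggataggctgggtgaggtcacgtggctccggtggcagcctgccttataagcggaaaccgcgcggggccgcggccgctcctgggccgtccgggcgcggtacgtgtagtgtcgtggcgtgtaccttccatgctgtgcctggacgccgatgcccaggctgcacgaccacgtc
Lss: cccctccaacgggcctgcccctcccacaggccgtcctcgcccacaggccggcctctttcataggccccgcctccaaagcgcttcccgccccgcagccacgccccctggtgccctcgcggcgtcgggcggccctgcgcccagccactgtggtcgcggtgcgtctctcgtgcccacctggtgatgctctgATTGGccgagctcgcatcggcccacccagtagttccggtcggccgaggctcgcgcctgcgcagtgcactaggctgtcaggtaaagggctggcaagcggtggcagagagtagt
Acly: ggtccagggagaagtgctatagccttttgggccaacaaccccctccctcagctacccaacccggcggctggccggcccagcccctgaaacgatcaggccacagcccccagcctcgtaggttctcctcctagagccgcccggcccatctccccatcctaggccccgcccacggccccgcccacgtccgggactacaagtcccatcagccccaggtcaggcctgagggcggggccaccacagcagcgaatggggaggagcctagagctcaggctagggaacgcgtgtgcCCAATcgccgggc
The SREBP consensus occurred in 1.24% of all 32851 RefSeq windows and, among those of the 36 genes, in 1 of 19 sterol windows, 0 of 10 regulator windows and 0 of 9 fatty acid windows. In Hmgcs1 it began 137 bases before the gene start, between 4 CCAAT boxes. At least 1 CCAAT box lay in 15 of 19 sterol windows (78.9%), 5 of 10 regulator windows and 4 of 9 fatty acid windows (44.4%), against 37.4% of all windows. The GC box GGGCGG, a site of the SREBP partner Sp1, lay in 15 of 19, 8 of 10 and 4 of 9, against 35.7%. The E-box CACGTG, a further motif that SREBPs bind, lay in 3 of 19, 3 of 10 and 1 of 9, against 7.15%. All motifs were searched on both strands, and none of the 4 contains the letters of another. A match is a description of these letters and not a binding site, and promoters that share a gene are not independent.

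Both branches were low at 4 h and higher again at 8 h. With times compared in a fit that has a term for batch, the lowest of the 4 fitted levels fell at 4 h for 14 of 19 sterol genes (73.7%) and 9 of 12 fatty acid genes (75.0%), and for 25.5% of all genes tested. It fell at 8 h for 0 sterol genes and for Elovl5 and Mid1ip1 of the fatty acid branch. The highest level was spread over the times: 6 sterol genes had it at 0 h, another 6 at 1 h, Ggps1 at 4 h and the remaining 6 at 8 h. Every one of the 36 genes differed among the times at an edgeR adjusted p under 0.05, as did 79.8% of all genes tested.

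**Figure D1:**
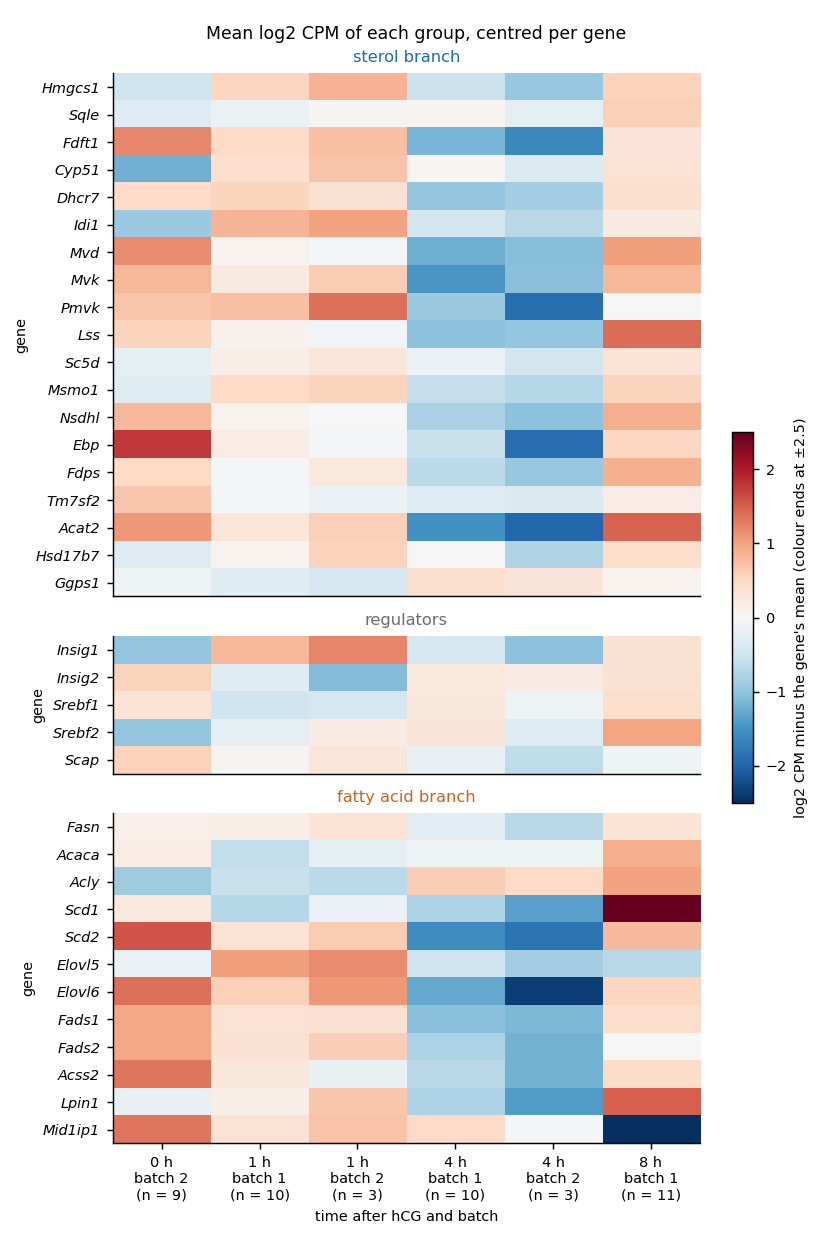
Mean log2 CPM of each gene (rows) in each time and batch (columns, n below), minus the gene's own mean over the groups; red is above and blue below. The columns at 4 h are mostly blue in both branches, where 15 sterol and 8 fatty acid genes fell from 1 h. Acly and Ggps1 rose there, and Mid1ip1 is bluest at 8 h.

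From 1 h to 4 h, 25 of the 36 genes fell and 3 rose, where 28.9% of all genes tested fell and 26% rose (54.8% together). The falls were 15 of 19 sterol genes, Insig1 and Scap among the regulators, and 8 of 12 fatty acid genes. The rises were Ggps1, Srebf1 and Acly. From 4 h to 8 h, 27 genes rose and 1 fell, where 19.8% of all genes tested rose and 21.6% fell (41.3% together). Those that rose were 17 of 19 sterol genes (all but Cyp51 and Ggps1), Insig1 and Srebf2, and 8 of 12 fatty acid genes, and the one that fell was Mid1ip1. The median log2 fold change of the sterol branch was -1.16 from 1 h to 4 h and 1.24 from 4 h to 8 h, that of the fatty acid branch was -1.43 and 1.27, and that of all genes was -0.06 and 0.00. Both steps use the same 4 h libraries, so the fall and the rise are not independent of each other. In batch 1 the 4 h follicles were on a plate of their own. When each library set (the 2 plates of batch 1, and batch 2) had its own term, 19 genes fell and 1 rose at 4 h (10.7% and 13.1% of all genes in that fit), and 20 rose and 1 fell at 8 h (6.35% and 10.4%). Plate 2 held no other time, so that fit takes its 4 h level from the 3 follicles of batch 2 alone. Its rise at 8 h joins plate 1 and batch 2 through 1 h. The comparisons within batch 2 that follow use the same follicles and are not a separate check. In batch 2, where all 3 times shared a library set, every one of the 3 follicles at 4 h lay below every one at 1 h for 13 sterol genes, 2 regulators and 8 fatty acid genes, a separation seen in 14% of all genes tested. They lay above it for Ggps1 and Acly (17.3% of all genes). With batch 2 fitted alone, 12 genes fell and 1 rose, where 5.88% of all genes fell and 6.15% rose. In batch 1 only Elovl5 and Elovl6 were separated downward between 1 h and 4 h (5.98% of all genes) and none upward (6.68%). Between 4 h and 8 h the follicles of batch 1 were separated upward for 6 sterol genes (Mvd, Mvk, Lss, Nsdhl, Fdps and Acat2), Srebf2, and 4 fatty acid genes (Scd1, Elovl6, Fads1 and Lpin1), as they were for 3.18% of all genes, and downward for Mid1ip1 (5.18%).

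The step from 1 h to 4 h could be set side by side in the 2 batches for 33 of the 36 genes. None differed between the batches by edgeR, where 4.53% of all genes tested did (2.89% upward and 1.64% downward). In edgeR, 4 had an unadjusted p under 0.05 (Hsd17b7, Insig1, Srebf2 and Elovl6), and DESeq2 called 1, Elovl6. The shares of all genes at these thresholds are not given here, so these counts are not read as a result about the members. Batch 2 has 3 follicles at each of these times, so the absence of calls does not show that the batches agreed. The median log2 difference of the step, batch 2 minus batch 1, was -0.52 for the 33 genes and 0.04 for all genes tested. Negative values mean a lower step in batch 2.

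Against 0 h, 7 genes were higher and 9 lower at 1 h, where 12.4% of all genes tested were higher and 22.2% lower. At 4 h, 3 were higher and 20 lower (21.9% and 32.2% of all genes), and at 8 h 11 were higher and 8 lower (17.5% and 27.6%). In either direction this makes 16, 23 and 19 genes of the 36, where 34.6%, 54.2% and 45.1% of all genes were called. All 3 comparisons share the 0 h follicles. The scale matters here: fitted on log2(TPM + 1) with limma, 10 were higher and 2 lower at 1 h (16.3% and 17.4% of all genes in that fit), 7 and 14 at 4 h (28.3% and 21.3%), and 18 and 2 at 8 h (28.5% and 16.5%). The median of all genes at 8 h moved from -0.15 to 0.23. At 1 h, 6 of the 7 rises (Hmgcs1, Idi1, Cyp51, Insig1, Srebf2 and Elovl5) were called under every alternative except a block for replicate numbers, and their 3 batch 2 follicles at 1 h all lay above the 9 at 0 h, as they did for 7.35% of all genes tested. None was separated downward (11.3%). At 4 h, Acly was separated upward from 0 h (11.4% of all genes), and 8 sterol and 7 fatty acid genes downward (16.9%). None of the 9 falls at 1 h was called when batch 2 was fitted alone, where 10.7% of all genes were lower. Of the 16 calls, 9 were left without the 5 libraries of 0 h whose descriptions end in "_ds", a mark of unstated meaning. At 8 h the comparison with 0 h joins different batches through the follicles at 1 h and 4 h. The fold against 0 h in the authors' deposited table had the same sign as the refit for 35, 35 and 34 of the 36 genes at 1 h, 4 h and 8 h.

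**Figure D2:**
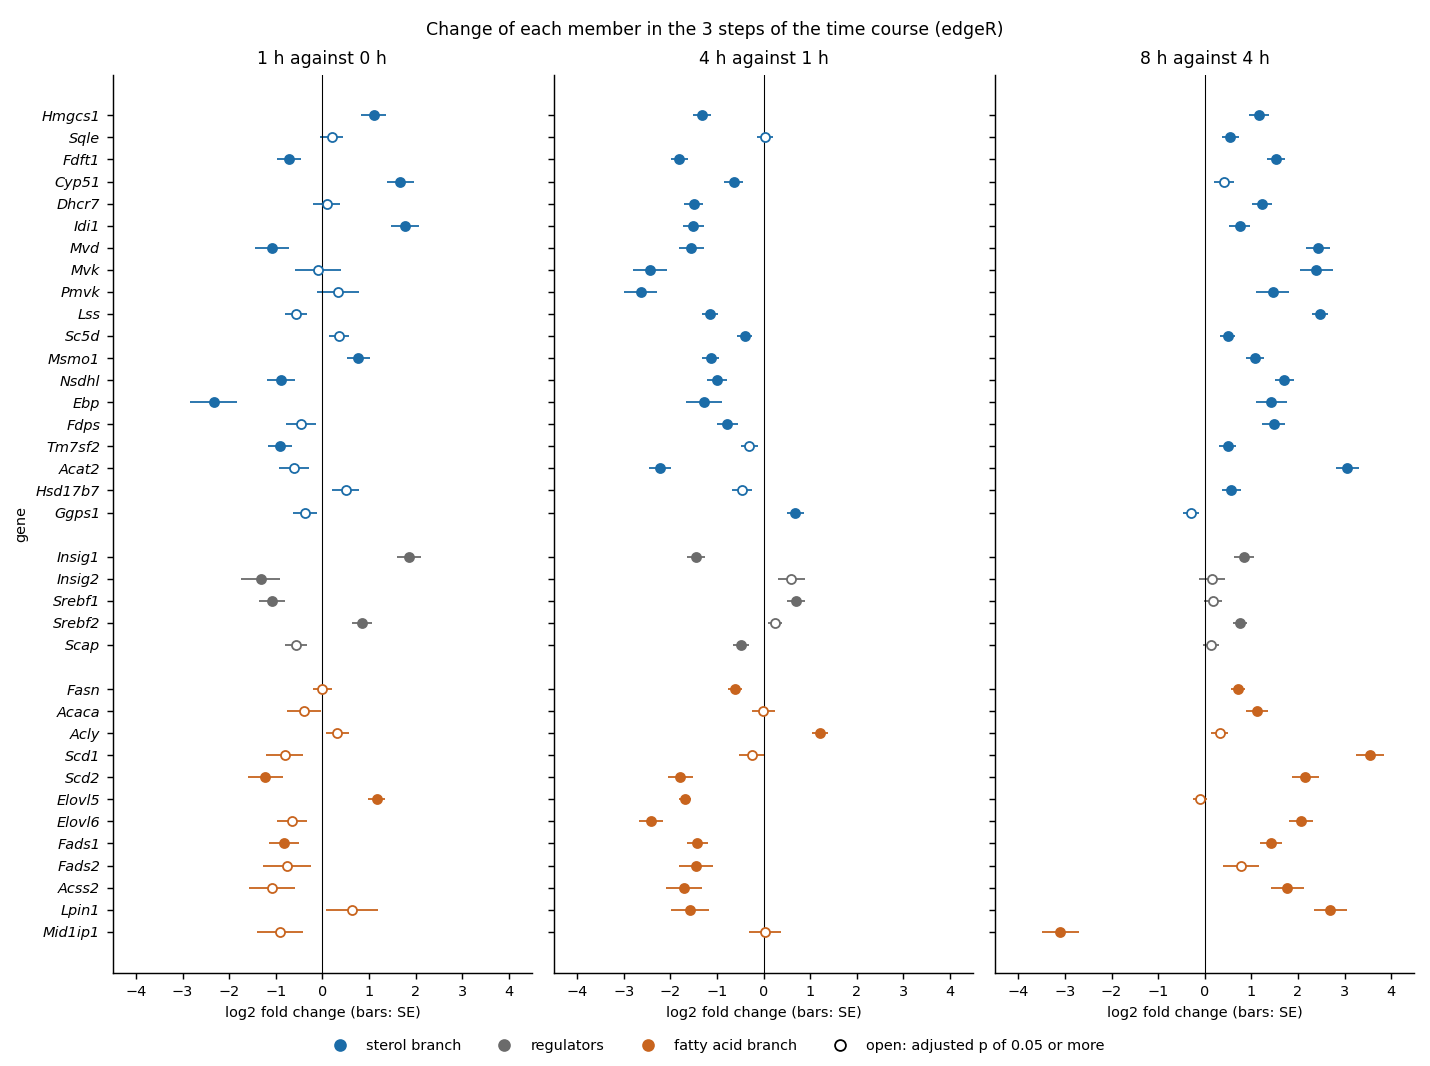
Log2 fold change of each of the 36 genes in 3 steps of the time course, with SE bars, from edgeR; filled points passed an adjusted p of 0.05. Most points of both branches lie left of 0 from 1 h to 4 h and right of 0 from 4 h to 8 h. Of all 36 genes, regulators included, 25 fell in the first of these steps and 27 rose in the second.

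The sterol branch opens with enzymes that make mevalonate and its phosphates. Hmgcs1 (chr13:119690379-119708260, plus strand, GRCm38, as for all positions here) encodes the synthase that joins acetyl-CoA and acetoacetyl-CoA. In batch 2 its CPM (counts scaled to the same library total, with TMM factors) ranged from 314 to 677 (median 477) at 0 h, were 1061, 1033 and 1547 in the 3 follicles at 1 h, and 359, 265 and 409 at 4 h. In batch 1 they ranged from 404 to 1874 (median 1019) at 1 h, from 286 to 866 (median 423) at 4 h and from 622 to 1497 (median 1029.6) at 8 h. The batch 2 follicles at 1 h stood above all at 0 h, and those at 4 h were within the 0 h range or, for 1 of them, below it. At 8 h the level overlapped that of 1 h. The gene rose at 1 h (log2 fold change 1.10 ± 0.27 (SE), edgeR adjusted p = 0.0017), fell by 4 h (-1.32 ± 0.20 (SE), edgeR adjusted p = 3.0e-07) and rose again by 8 h (1.17 ± 0.21 (SE), edgeR adjusted p = 1.5e-05). An annotated transcript on the opposite strand, Gm48342, shares 12.1% of its exonic bases, and these libraries do not keep strand.

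Acat2 (chr17:12942890-12960747, minus strand) encodes a cytosolic thiolase that makes acetoacetyl-CoA. Its CPM in batch 2 ranged from 82.4 to 168 (median 129) at 0 h and was 45.3, 132 and 123 at 1 h and 21.7, 8.30 and 15.8 at 4 h. The batch 1 follicles ranged from 23.8 to 228 (median 78.98) at 1 h, from 8.73 to 32.9 (median 19.2) at 4 h and from 122 to 229 (median 168) at 8 h. At 4 h all 3 follicles of batch 2 were below every follicle at 0 h and 1 h, and at 8 h every follicle was above every follicle at 4 h. Its rise from 4 h to 8 h (log2 fold change 3.06 ± 0.25 (SE), edgeR adjusted p = 9.0e-14) was the largest in the sterol branch. The fall from 1 h to 4 h was -2.22 ± 0.24 (SE), edgeR adjusted p = 6.2e-11. By sequence, 39.1% of the 50-base words in its transcripts also occur in other genes, mainly Acat3 and Tcp1, so some of its reads may be shared. Acat3 had a median TPM of 1.95, and Tcp1 moved the other way, by 0.87 from 1 h to 4 h and -0.41 from 4 h to 8 h.

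Mevalonate is phosphorylated by the products of Mvk (chr5:114444269-114460591, plus strand) and Pmvk. Mvk CPM in batch 2 ranged from 6.42 to 27.8 (median 17.3) at 0 h and was 9.33, 16.2 and 18.8 at 1 h and 3.82, 4.47 and 2.49 at 4 h. Those of batch 1 ranged from 0 to 51.5 (median 16.6) at 1 h, from 0 to 6.23 (median 2.69) at 4 h and from 9.45 to 32.9 (median 15.6) at 8 h. The 4 h follicles of batch 2 were all below those at 0 h and 1 h of that batch. The 8 h follicles were all above those at 4 h, with 0 counts in some libraries of batch 1 at 1 h and 4 h. The gene fell from 1 h to 4 h (log2 fold change -2.44 ± 0.36 (SE), edgeR adjusted p = 1.8e-07) and rose by 8 h (2.40 ± 0.36 (SE), edgeR adjusted p = 4.9e-07). Pmvk fell more than any other sterol gene from 1 h to 4 h (-2.64 ± 0.35 (SE), edgeR adjusted p = 9.3e-09) and rose less far by 8 h (1.46), which left it lower at 8 h than at 1 h (-1.18 ± 0.33 (SE), edgeR adjusted p = 0.0028). That last difference was not called by limma on log2(TPM + 1).

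Mvd (chr8:122433601-122443422, minus strand) encodes the decarboxylase that yields isopentenyl diphosphate. In batch 2 its CPM ranged from 17.02 to 38.2 (median 33.7) at 0 h and was 6.66, 20.8 and 10.7 at 1 h and 2.55, 5.75 and 8.31 at 4 h. Batch 1 follicles ranged from 4.20 to 36.6 (median 13.7) at 1 h, from 1.87 to 8.30 (median 4.09) at 4 h and from 18.4 to 41.8 (median 22.5) at 8 h. All follicles at 8 h were above all at 4 h, while the 4 h follicles of batch 2 overlapped those at 1 h. Mvd fell from 1 h to 4 h (log2 fold change -1.55 ± 0.27 (SE), edgeR adjusted p = 2.5e-06) and rose from 4 h to 8 h (2.43 ± 0.25 (SE), edgeR adjusted p = 5.5e-11), and 8 h exceeded 1 h by 0.88 (edgeR adjusted p = 0.0026). Within batch 2 alone the fall was -1.13 (edgeR adjusted p = 0.19).

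Idi1 (chr13:8885501-8892451, plus strand) encodes the enzyme that interconverts isopentenyl and dimethylallyl diphosphate. Its CPM at 0 h ranged from 24.1 to 108 (median 54.8), and in batch 2 was 216, 162 and 295 at 1 h and 70.1, 46.6 and 85.6 at 4 h. For batch 1 the range was from 98.01 to 452 (median 191) at 1 h, from 50.9 to 131 (median 82.2) at 4 h and from 82.4 to 209 (median 112) at 8 h. Every batch 2 follicle at 1 h was above every follicle at 0 h, and those at 4 h were back within the 0 h range. Idi1 rose 3.40-fold at 1 h (log2 fold change 1.77 ± 0.30 (SE), edgeR adjusted p = 1.2e-05), fell by 4 h (-1.51 ± 0.22 (SE), edgeR adjusted p = 1.3e-07), and at 8 h was still lower than at 1 h (-0.76 ± 0.24 (SE), edgeR adjusted p = 0.0061). For Idi1, limma on log2(TPM + 1) did not call the last of these. Other genes, most of them unnamed gene models, hold 25.3% of its 50-base words. Fdps, which makes farnesyl diphosphate, fell from 1 h to 4 h (-0.78) and rose by 8 h (1.48). Ggps1, which extends farnesyl to geranylgeranyl diphosphate for protein prenylation, was the only sterol gene to rise from 1 h to 4 h (0.67 ± 0.18 (SE), edgeR adjusted p = 0.0016).

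Fdft1 (chr14:63145150-63179578, minus strand) encodes squalene synthase, the first enzyme committed to sterols. The CPM ranged from 142 to 378 (median 279.6) at 0 h, and in batch 2 was 157, 173 and 279 at 1 h and 45.3, 37.03 and 29.9 at 4 h. Batch 1 gave from 77.01 to 228 (median 182) at 1 h, from 26.05 to 111 (median 50.4) at 4 h and from 106 to 221 (median 147) at 8 h. At 4 h all 3 follicles of batch 2 were below all earlier ones, and at 8 h the range overlapped that of 4 h only at its edge. The fall from 1 h to 4 h (log2 fold change -1.81 ± 0.19 (SE), edgeR adjusted p = 2.4e-11) was followed by a rise (1.52 ± 0.19 (SE), edgeR adjusted p = 1.3e-08) that left 8 h not called against 1 h (-0.29, edgeR adjusted p = 0.23). Ctsb, on the opposite strand, shares 18.3% of its exonic bases and had a median TPM of 428, and it had log2 fold changes of -0.48 (edgeR adjusted p = 0.052) and 1.16 over the same steps.

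Squalene epoxidase, encoded by Sqle, had no call through 4 h (0.20 at 1 h and 0.032 from 1 h to 4 h) and rose by 8 h (0.55 ± 0.18 (SE), edgeR adjusted p = 0.013). Lss (chr10:76531588-76557138, plus strand) encodes lanosterol synthase, which closes the sterol ring system. The CPM of Lss ranged from 26.8 to 64.03 (median 47.2) at 0 h, and in batch 2 was 35.99, 32.3 and 24.1 at 1 h and 12.7, 14.7 and 19.9 at 4 h. In batch 1 it ranged from 16.8 to 57.6 (median 36.2) at 1 h, from 7.54 to 22.4 (median 15.7) at 4 h and from 64.2 to 129 (median 80.7) at 8 h. All follicles at 8 h lay above all others of the series, and the 4 h follicles of batch 2 lay below all others of that batch. Of the sterol genes it had the smallest p among the times, with a fall at 4 h (log2 fold change -1.16 ± 0.17 (SE), edgeR adjusted p = 1.3e-07) and a rise at 8 h (2.47 ± 0.17 (SE), edgeR adjusted p = 8.1e-16). It also exceeded its 1 h level on the shared plate (1.32 (edgeR adjusted p = 2.6e-07) with plate 1 fitted alone). It was the only sterol gene with no overlap between 8 h and 1 h there, where 6.33% of all genes tested were separated upward.

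Cyp51, the lanosterol demethylase, rose at 1 h (1.67 ± 0.28 (SE), edgeR adjusted p = 7.7e-06) and, unlike most of the branch, remained above 0 h at 4 h (1.04 ± 0.29 (SE), edgeR adjusted p = 0.0022). Of Msmo1 and Tm7sf2, which act next on the sterol nucleus, Msmo1 rose at 1 h (0.77 ± 0.25 (SE), edgeR adjusted p = 0.014), and Tm7sf2 was lower at 1 h than at 0 h (-0.91). In batch 2 alone the changes were 0.87 (edgeR adjusted p = 0.054) for Msmo1 and -0.87 (edgeR adjusted p = 0.15) for Tm7sf2. Msmo1 was the most abundant of the 36 genes per length, with a median TPM of 482 over the 46 follicles. Nsdhl (chrX:72918557-72958514, plus strand) encodes the dehydrogenase that works with Msmo1 and Hsd17b7 to remove the methyl groups at carbon 4. Its CPM was from 30.5 to 85.7 (median 52.3) at 0 h, 13.3, 48.5 and 34.8 at 1 h and 10.8, 12.8 and 16.6 at 4 h in batch 2. Batch 1 follicles were from 15.4 to 48.8 (median 35.95) at 1 h, from 7.70 to 30.8 (median 15.5) at 4 h and from 35.2 to 83.01 (median 50.8) at 8 h. No follicle at 8 h was as low as any at 4 h, and the 4 h follicles of batch 2 were below all at 0 h but overlapped those at 1 h. Nsdhl fell by 4 h (log2 fold change -0.996 ± 0.21 (SE), edgeR adjusted p = 7.8e-05) and rose by 8 h (1.71 ± 0.21 (SE), edgeR adjusted p = 4.3e-09), to a level above 1 h (0.71, edgeR adjusted p = 0.0046). Hsd17b7 rose from 4 h to 8 h (0.57 ± 0.21 (SE), edgeR adjusted p = 0.027), and its change at 1 h (0.50) was called in batch 2 alone (1.01 (edgeR adjusted p = 0.027)) and not with both batches.

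Among the last steps, Ebp, the sterol isomerase, was one of the least abundant sterol genes and was below 0 h at 4 h (-3.61 ± 0.52 (SE), edgeR adjusted p = 7.6e-08), with 0 counts in 2 of the 3 follicles of batch 2 at 4 h. Sc5d, a desaturase, had small changes of -0.41 from 1 h to 4 h and 0.50 from 4 h to 8 h, and the first of these was not called in either batch alone. Dhcr7 (chr7:143823145-143848410, plus strand) encodes the reductase that turns 7-dehydrocholesterol into cholesterol. Dhcr7 CPM ranged from 34.3 to 72.00 (median 65.9) at 0 h, and in batch 2 was 58.6, 34.6 and 77.7 at 1 h and 40.8, 20.4 and 12.5 at 4 h. Batch 1 follicles ranged from 18.2 to 107 (median 74.7) at 1 h, from 7.70 to 40.1 (median 22.4) at 4 h and from 36.2 to 77.5 (median 57.1) at 8 h. Levels at 0 h, 1 h and 8 h overlapped broadly, and those at 4 h were lower with some overlap in both batches. The fall at 4 h was -1.50 ± 0.21 (SE), edgeR adjusted p = 2.6e-08, and the rise at 8 h 1.24 ± 0.21 (SE), edgeR adjusted p = 6.2e-06.

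**Figure D3:**
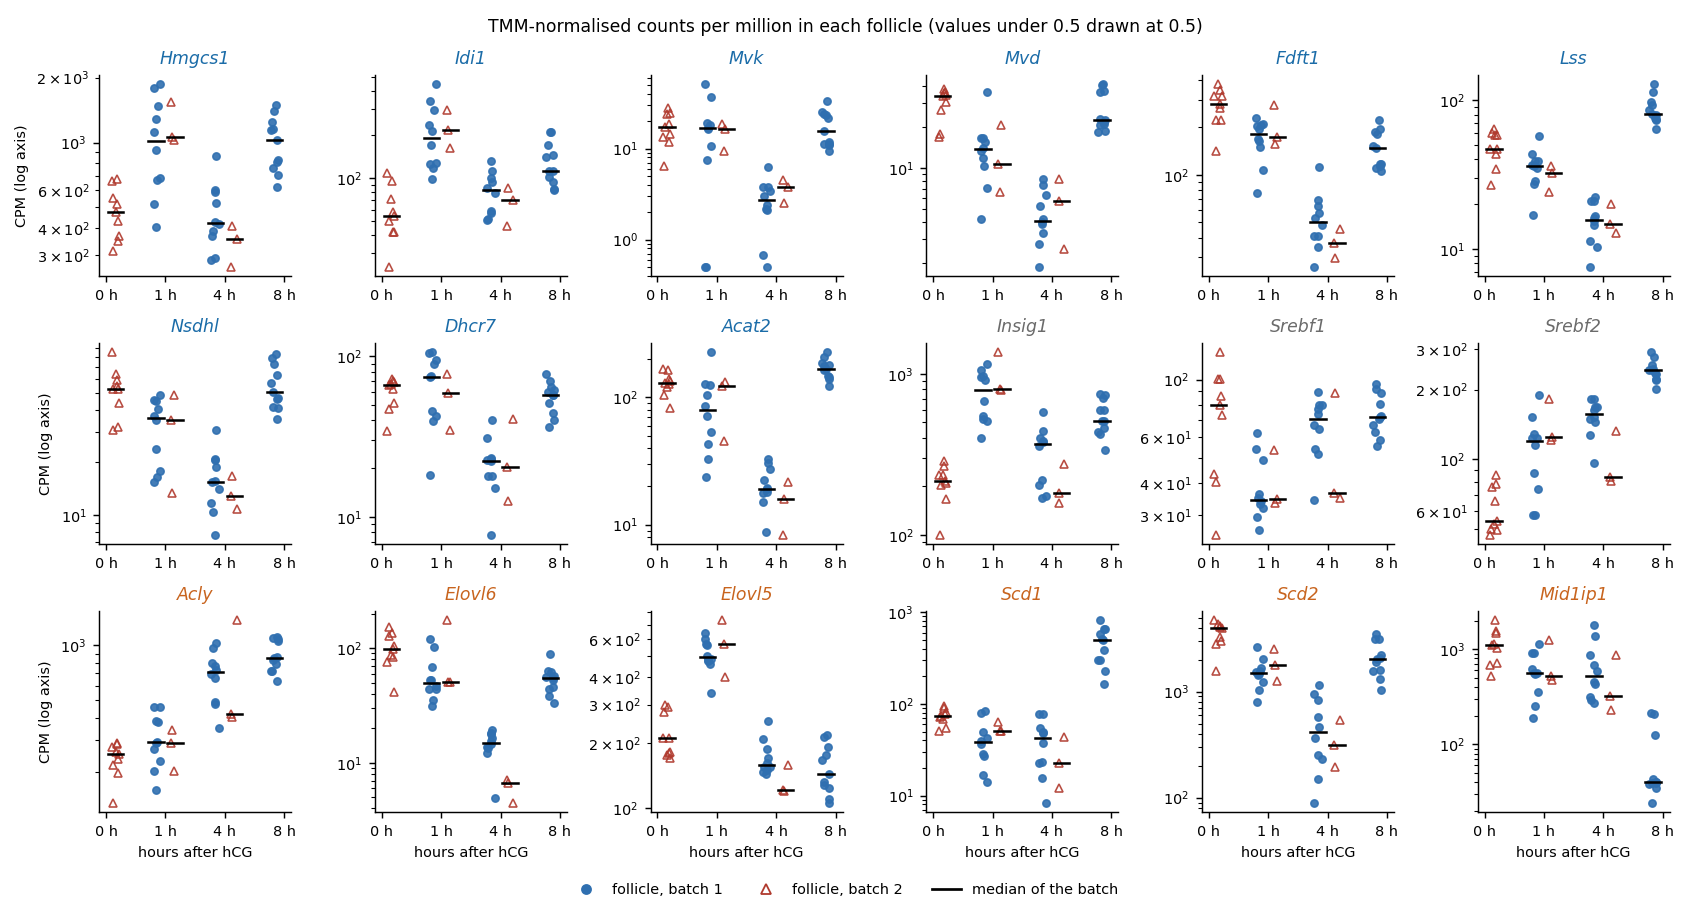
TMM-normalised CPM of 18 of the genes in each follicle, on log axes that differ between panels; titles are blue for the sterol branch, grey for regulators and orange for the fatty acid branch. Filled circles are batch 1, open triangles batch 2, and bars the median of each batch. Lss, Srebf2 and Scd1 at 8 h lie above their other follicles of batch 1. Mid1ip1 at 8 h lies below all follicles at 4 h and overlaps batch 1 at 1 h.

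The 5 regulators gave different time courses. Insig1 (chr5:28071363-28078662, plus strand) encodes the retention protein that is itself a strong SREBP target. Its CPM ranged from 100.1 to 287 (median 217) at 0 h, and in batch 2 was 804, 797 and 1369.7 at 1 h and 275, 158 and 184 at 4 h. Batch 1 follicles ranged from 402 to 1148 (median 796) at 1 h, from 169 to 579 (median 368) at 4 h and from 338 to 747 (median 512) at 8 h. The batch 2 follicles at 1 h were all above the 0 h range, and those at 4 h had returned to it. Insig1 rose 3.62-fold at 1 h (log2 fold change 1.86 ± 0.27 (SE), edgeR adjusted p = 3.3e-07), fell by 4 h (-1.45 ± 0.20 (SE), edgeR adjusted p = 2.5e-08) and rose by 8 h (0.84 ± 0.21 (SE), edgeR adjusted p = 8.0e-04). Insig2, its paralog, had -1.32 at 1 h, a call lost without replicate 11 of 1 h (-0.93, edgeR adjusted p = 0.095), and 0.60 and 0.16 in the next steps, with neither called. Of the summed TPM of the pair, Insig1 took from 35.3% to 93.2% (median 81.8%) at 0 h and from 92.2% to 98.8% (median 95.97%) at 1 h in batch 1.

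Srebf2 (chr15:82147181-82205379, plus strand) was the only regulator called higher than at 0 h at every later time. The fitted level of Insig1 was also above 0 h throughout, without a call at 4 h (0.40). The CPM ranged from 47.2 to 85.7 (median 54.2) at 0 h, and in batch 2 was 121, 125 and 182 at 1 h and 133, 84.3 and 80.6 at 4 h. Those of batch 1 ranged from 57.4 to 189 (median 119.8) at 1 h, from 96.2 to 183 (median 157) at 4 h and from 200.4 to 291 (median 243) at 8 h. Each batch 2 follicle at 1 h was above all at 0 h, 2 of the 3 at 4 h were not, and all follicles at 8 h were above all of batch 1 at 1 h and 4 h. The rise against 0 h was 0.85 ± 0.21 (SE), edgeR adjusted p = 0.0018, at 1 h, 1.08 ± 0.22 (SE), edgeR adjusted p = 5.1e-05, at 4 h and 1.84 ± 0.25 (SE), edgeR adjusted p = 3.5e-08, at 8 h. From 1 h to 4 h its change differed in sign between the batches (0.52 in batch 1 and -0.49 in batch 2), and the difference itself was not called. Its fitted level was lowest at 0 h, where 14 of the 19 sterol genes were lowest at 4 h.

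Srebf1 (chr11:60199089-60222581, minus strand) encodes the SREBP of the fatty acid genes. Its CPM ranged from 25.2 to 128 (median 80.1) at 0 h, and in batch 2 was 33.3, 34.6 and 53.6 at 1 h and 35.1, 36.4 and 88.9 at 4 h. Batch 1 gave from 26.3 to 62.1 (median 34.4) at 1 h, from 34.3 to 89.5 (median 70.4) at 4 h and from 55.6 to 95.9 (median 71.8) at 8 h. All these ranges overlapped those of neighbouring times. Srebf1 rose from 1 h to 4 h (log2 fold change 0.69 ± 0.19 (SE), edgeR adjusted p = 0.0023), though not in batch 2 alone (0.44 (edgeR adjusted p = 0.68)), and was higher at 8 h than at 1 h (0.88 ± 0.21 (SE), edgeR adjusted p = 3.9e-04), also with plate 1 fitted alone (0.95 (edgeR adjusted p = 5.0e-06)). Its lower level at 1 h than at 0 h (-1.07) was not called in batch 2 alone (-0.85, edgeR adjusted p = 0.20) or without the "_ds" libraries (-0.48, edgeR adjusted p = 0.26). Srebf2 took from 32.4% to 65.1% (median 41.99%) of the summed TPM of the pair at 0 h, in batch 2. Within that batch it took from 76.03% to 77.25% at 1 h, above the 0 h range, and from 45.8% to 77.9% at 4 h, overlapping it. At 8 h, in batch 1, it took from 69.8% to 81.2% (median 75.2%), so 8 h and 0 h are set side by side across batches. Scap, the escort protein, was lower at 4 h than at 0 h (-1.04 ± 0.25 (SE), edgeR adjusted p = 4.6e-04) and at 8 h (-0.91 ± 0.28 (SE), edgeR adjusted p = 0.0067). Without the "_ds" libraries these values were -0.55 (edgeR adjusted p = 0.12) and -0.41 (edgeR adjusted p = 0.32). On log2(TPM + 1) with limma they were -0.36 and -0.13, with neither called. Without replicate 11 of 1 h the second was -0.68 (edgeR adjusted p = 0.054).

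The fatty acid branch starts from cytosolic acetyl-CoA, made from citrate by the product of Acly (chr11:100476353-100528000, minus strand) or from acetate by that of Acss2. The CPM of Acly ranged from 136 to 292 (median 252) at 0 h, and in batch 2 was 341, 203 and 289 at 1 h and 1381, 418 and 402 at 4 h. In batch 1 it ranged from 160.2 to 458 (median 293) at 1 h, from 351 to 1033 (median 715) at 4 h and from 637 to 1115 (median 852) at 8 h. All 3 follicles of batch 2 at 4 h were above every follicle at 0 h and 1 h of that batch, 1 of them by far the highest, and all follicles at 8 h were above those of batch 1 at 1 h. Acly rose from 1 h to 4 h (log2 fold change 1.21 ± 0.18 (SE), edgeR adjusted p = 1.1e-07), in both batches alone, and from 4 h to 8 h its change of 0.32 was not called. Acss2, a low gene, went the other way from 1 h to 4 h (-1.72 ± 0.38 (SE), edgeR adjusted p = 1.8e-04) and rose by 8 h (1.77). With both batches fitted, the genes for these 2 sources of acetyl-CoA moved in opposite directions at 4 h. The fall of Acss2 rests on few counts and was not called in batch 2 alone or by limma on log2(TPM + 0.1).

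Acaca encodes the carboxylase that makes malonyl-CoA and Fasn the synthase that builds palmitate. Acaca rose from 4 h to 8 h (1.11 ± 0.24 (SE), edgeR adjusted p = 1.7e-04), with 30.4% of its 50-base words found in other gene models. Fasn fell by 4 h (-0.62 ± 0.15 (SE), edgeR adjusted p = 3.5e-04) and rose by 8 h (0.71 ± 0.15 (SE), edgeR adjusted p = 1.6e-04). Mid1ip1 (chrX:10715013-10719690, plus strand) encodes a protein that promotes polymerization of the carboxylase. The CPM ranged from 524 to 2040.5 (median 1100.2) at 0 h, and in batch 2 was 524, 469 and 1262 at 1 h and 862, 325 and 228 at 4 h. The batch 1 values ran from 188 to 1139 (median 559) at 1 h, from 269 to 1809 (median 523) at 4 h and from 24.2 to 211 (median 40.1) at 8 h. Of the 11 follicles at 8 h, 8 lay between 24.2 and 42.7 and the other 3 (replicates 1, 3 and 4) between 125 and 211, and all 11 lay below those at 4 h. It was the only one of the 36 genes that fell from 4 h to 8 h (log2 fold change -3.10 ± 0.40 (SE), edgeR adjusted p = 1.3e-08), and on plate 1 alone 8 h was below 1 h by the same order (-2.94 (edgeR adjusted p = 1.9e-06)). The gene Gm14493 on the opposite strand shares 25.5% of its exonic bases.

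Elovl6 (chr3:129532355-129638495, plus strand) lengthens palmitate to stearate, and Elovl5 (chr9:77917364-77984519, plus strand) lengthens polyunsaturated chains. Elovl6 CPM ranged from 41.2 to 153 (median 98.7) at 0 h, and in batch 2 was 50.6, 50.8 and 177 at 1 h and 4.46, 7.02 and 6.65 at 4 h. Batch 1 follicles ranged from 31.1 to 119.6 (median 49.4) at 1 h, from 4.89 to 19.4 (median 15.02) at 4 h and from 33.4 to 89.02 (median 54.4) at 8 h. Follicles at 4 h were below all at 1 h in both batches, and those at 8 h were above all at 4 h. The fall was -2.42 ± 0.25 (SE), edgeR adjusted p = 2.5e-11, and the rise 2.07 ± 0.25 (SE), edgeR adjusted p = 4.5e-09.

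Elovl5 CPM ranged from 169.7 to 297 (median 210.1) at 0 h, and in batch 2 was 570.5, 399.6 and 737 at 1 h and 157, 121 and 119.6 at 4 h. In batch 1 it ranged from 338 to 642 (median 495) at 1 h, from 144 to 253 (median 158) at 4 h and from 106 to 217 (median 143) at 8 h. The follicles at 1 h stood above all others in their batch, and 8 h stayed as low as 4 h. Elovl5 rose at 1 h (log2 fold change 1.17 ± 0.18 (SE), edgeR adjusted p = 2.2e-06), the only rise of the fatty acid branch at that time, and fell by 4 h (-1.69 ± 0.14 (SE), edgeR adjusted p = 1.1e-14), with no call from 4 h to 8 h (-0.10). In batch 1, Elovl5 was the only one of the 36 whose follicles at 8 h all lay below those at 1 h (7.38% of all genes). The share of Elovl5 in the summed TPM of the pair had a median of 71.01% before hCG, and in batch 1 of 92.1% at 1 h, 92.5% at 4 h and 77.1% by 8 h.

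Stearoyl-CoA desaturases place a double bond in saturated chains and lie side by side on chromosome 19. Scd2 (chr19:44293674-44306864, plus strand) was the second most abundant of the 36 genes by median TPM, at 368. Its CPM ranged from 1579 to 4770.3 (median 3969) at 0 h, and in batch 2 was 1773, 1259 and 2517 at 1 h and 535, 314 and 194 at 4 h. Batch 1 follicles ranged from 797 to 2618 (median 1505) at 1 h, from 89.1 to 1161 (median 412) at 4 h and from 1028 to 3485 (median 2032) at 8 h. Every batch 2 follicle at 4 h was below all earlier ones, and in batch 1 the ranges of 4 h and 8 h met only at their edges. Scd2 fell by 4 h (log2 fold change -1.78 ± 0.27 (SE), edgeR adjusted p = 2.5e-07) and rose by 8 h (2.16 ± 0.29 (SE), edgeR adjusted p = 2.8e-08).

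Scd1 (chr19:44394455-44407879, minus strand) was lower than Scd2 at all times. The CPM ranged from 51.05 to 94.9 (median 73.4) at 0 h, and in batch 2 was 50.6, 50.8 and 64.3 at 1 h and 43.3, 12.1 and 22.4 at 4 h. For batch 1 the range was from 14.2 to 83.4 (median 38.1) at 1 h, from 8.31 to 78.05 (median 42.97) at 4 h and from 165 to 831 (median 499) at 8 h. Every follicle at 8 h was above every other follicle. Scd1 rose 11.7-fold from 4 h to 8 h (log2 fold change 3.55 ± 0.29 (SE), edgeR adjusted p = 1.4e-13), the largest rise of the 36, and on plate 1 alone 8 h exceeded 1 h by 3.45 (edgeR adjusted p = 2.2e-09). Its share of the pair's summed TPM was from 1.30% to 5.34% (median 2.45%) at 1 h and from 12.4% to 25.95% (median 20.03%) at 8 h in batch 1. Scd1 thus took a larger part of the pair while Scd2 stayed the more abundant in every follicle. Other genes of this family, the pair itself and Scd3 and Scd4 among them, hold 4.56% of the 50-base words of Scd1 and 3.97% of those of Scd2, and reads from those stretches cannot be assigned. Scd3, with a median TPM of 1.56, also rose from 4 h to 8 h (2.29, edgeR adjusted p = 1.4e-08).

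Fads1 and Fads2, the delta-5 and delta-6 desaturases of polyunsaturated synthesis, both fell by 4 h (-1.42 ± 0.22 (SE), edgeR adjusted p = 5.2e-07, for Fads1 and -1.45 ± 0.37 (SE), edgeR adjusted p = 9.2e-04, for Fads2), and the rise by 8 h was called for Fads1 (1.43) and not for Fads2 (0.77, edgeR adjusted p = 0.10). The Fads1 share of the pair had medians of 66.8% at 0 h (batch 2) and 73.2% at 8 h (batch 1), set side by side across batches. Within batch 1 its medians were 62.1% at 1 h and 64.7% at 4 h. The ranges overlapped in each case. Lpin1, a phosphatidate phosphatase of glycerolipid synthesis, was the least abundant of the 36 genes, with a median TPM of 1.05. It fell by 4 h (-1.58 ± 0.41 (SE), edgeR adjusted p = 9.9e-04), and rose by 8 h (2.70 ± 0.36 (SE), edgeR adjusted p = 2.8e-08).

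**Figure D4:**
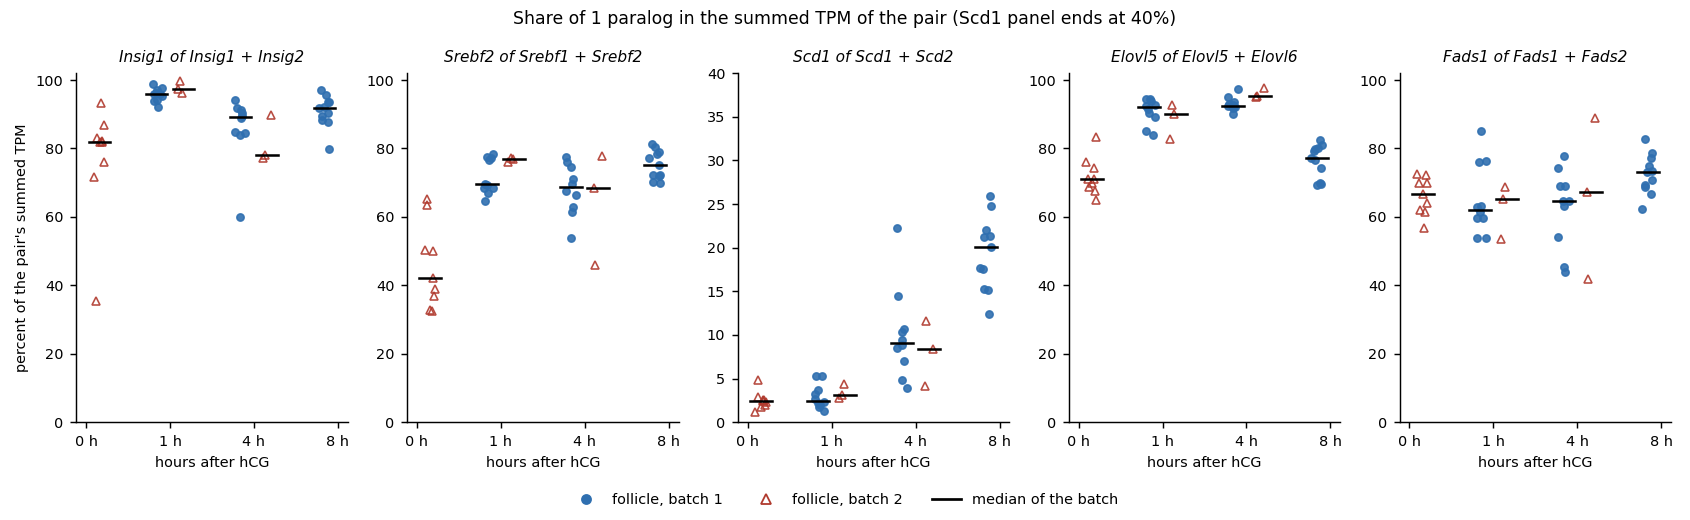
Percent of a pair's summed TPM that came from 1 paralog, in each follicle by time, with batch 1 as filled circles and batch 2 as open triangles; bars are batch medians. Median Scd1 share went from 2.45% at 1 h to 20.03% at 8 h in batch 1. The median Srebf2 share was 41.99% at 0 h (batch 2) and 75.2% at 8 h (batch 1).

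Set beside each other, both branches had most of their low points at 4 h. At 1 h, 4 of 19 sterol genes were higher than at 0 h and 5 lower, and 1 of 12 fatty acid genes was higher and 2 lower (12.4% and 22.2% of all genes), with median log2 fold changes of -0.09 and -0.71 against -0.19 for all genes. From 1 h to 8 h, 6 sterol genes rose and 2 fell, 3 regulators rose and 1 fell, and 4 fatty acid genes rose and 2 fell (23.2% of all genes rose and 25.9% fell, 49.1% together), with branch medians of 0.11 (sterol) and 0.07 (fatty acid). On log2(TPM + 1) with limma, 15 of the 36 rose and 2 fell over this interval, where 30.4% of all genes rose and 13.1% fell. The sterol genes that rose over that interval by edgeR were Sqle, Mvd, Lss, Nsdhl, Fdps and Acat2, and Idi1 and Pmvk fell. The falls of Idi1 and Pmvk were not called by limma on log2(TPM + 1). In the fatty acid branch Acaca, Acly, Scd1 and Lpin1 rose, and Elovl5 and Mid1ip1 fell. The log2 fold changes from 1 h to 8 h ran from -3.08 (Mid1ip1) to 3.30 (Scd1) in the fatty acid branch and from -1.18 to 1.31 in the sterol branch. Without Mid1ip1 and Scd1, those of the fatty acid branch ran from -1.79 (Elovl5) to 1.53 (Acly). A difference between the branches was not tested, since the members were picked with results of these data in view.

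Among 8 genes of SREBP processing, 2 rose and 2 fell from 1 h to 4 h, with sizes between -0.58 and 0.63, near the shares of all genes (26% rose and 28.9% fell). Of 19 further genes of fatty acid supply and activation, 11 were tested, and in the same step 5 rose and 2 fell. The mitochondrial citrate carrier Slc25a1 fell (-0.76 ± 0.13 (SE), edgeR adjusted p = 4.9e-06) and rose by 8 h (1.44). The NADPH source Me1 rose in both steps (1.28 and 1.10) and the arachidonate-preferring ligase Acsl4 rose by 4 h (3.75 ± 0.22 (SE), edgeR adjusted p = 7.7e-19).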

How the data were processed

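RNA of 46 single follicles was sequenced as paired-end Smart-Seq2 and Nextera XT libraries, which do not keep strand, per the labels' protocols. The authors deposited a table of counts, adjusted for batch with ComBat-seq per its file name, and TPM values made from adjusted counts. HISAT2, Partek, DESeq2 and GRCm38 are named in the submitters' processing notes, without versions. Their deposited table of comparisons gives a fold (ratio) and a p-value per gene. A further 10 columns of counts match no described sample and were not used.

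Counts were fitted with edgeR 4.0.16 (R 4.3.3) by quasi-likelihood on time and batch, with TMM factors and filterByExpr. P-values were adjusted by Benjamini-Hochberg over 8629 genes, and an adjusted p under 0.05 was called. CPM are scaled by the TMM factors, log2 CPM use a prior count of 2, and SE is the fold change over the square root of F. Since the deposited counts were already adjusted, p-values may understate the error. The biological coefficient of variation was 34%. DESeq2 1.42.0 and limma 3.58.1, on log2(TPM + 1) for genes with a mean TPM of at least 1, were alternatives, beside fits within a batch or plate. On simulated counts for 4 h against 0 h (8450 genes), 40% of changes of 2-fold and 90% of 4-fold were recovered. Shown in full are the 8 sterol genes, 3 regulators and 6 fatty acid genes with the smallest p among the times, and others where they describe a step. Hmgcs1 was added after its values were seen. The members and lists were chosen with earlier results of these data known. A list of other genes of sterol synthesis and supply is not reported here.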

Additional observations from a re-analysis of the deposited data

Results flagged for a closer look

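In each time and batch with 9 or 10 follicles, the follicle farthest from the rest was tested on log2 CPM by the ratio of its gap to the range (Dixon), and 7 of 108 combinations of gene and group stood out, where chance gives about 1 in 20. Of these, 4 came from replicate 3 at 0 h. It was lowest for Sqle at 5.92 (nearest 6.65), Cyp51 at 4.99 (nearest 5.95) and Scd2 at 10.63 (nearest 11.47), and highest for Ggps1 at 6.49 (nearest 5.08). At 1 h in batch 1, replicate 5 was lowest for Pmvk at 0.36 (nearest 3.28), with a count of 0. Replicate 9 was lowest for Elovl5 at 8.41 (nearest 8.85). At 4 h in batch 1, replicate 7 was lowest for Elovl6 at 2.62 (nearest 3.75). The cause of these values was not tested.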

How the results depend on the processing

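For 1 h against 0 h, 16 genes were called, against 9 without the 5 "_ds" libraries and 9 by limma without a filter. Batch 2 alone gave 7, all higher, where 7.47% of all genes were higher and 10.7% lower. For 4 h against 0 h, 23 were called, against 15 (of 27 tested) after thinning to the smallest library. For 8 h against 0 h, 19 were called, against 12 after thinning. With a term for the 3 library sets 11 were called, where 13.7% of all genes were higher and 26.2% lower. The fits also differ in how many of all genes they call, and most of those shares are not given here. The counts under other fits here, and those with a replicate block below, are thus not read as a result about the members. The sterol median at 4 h against 0 h was -1.24, against -0.43 after thinning, where 14 sterol genes could be tested (-0.29 for the same 14 without thinning), and -0.61 by limma on log2(TPM + 1), with or without a filter, and on log2(TPM + 0.1). At 8 h against 0 h it was 0.23, against 1.08 by limma (1.09 with 0.1), and the fatty acid median was -0.72, against 0.081 by limma (0.084 with 0.1). Elovl5 turned sign by limma at 4 h (0.072) and 8 h (0.035, and 0.034 with 0.1) against 0 h, as did Tm7sf2 at 8 h (0.060, and 0.070 with 0.1). From 1 h to 4 h, 28 were called, against 13 in batch 2 alone, which has 3 follicles a time. The difference of that step between batches gave 0 calls, 1 by DESeq2, and 0 to 1 with single follicles left out.

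Replicate numbers did not pair the samples: deviations of same-numbered libraries correlated between -0.20 and 0.25, and 5 of 46 libraries matched their own number best. With a replicate block, 0 genes were called at 1 h, 8 at 4 h and 2 at 8 h against 0 h, whose numbers are shared only with batch 1, and 28, 17 and 29 for 4 h against 1 h, 8 h against 1 h and 8 h against 4 h. Of the calls, 12 of 28 (4 h against 1 h), 14 of 18 (8 h against 1 h) and 20 of 28 (8 h against 4 h) were kept in every alternative that tested the gene. Low genes were tested in fewer alternatives. For 4 h against 1 h, Ebp and Lpin1 were tested in 19 and Hmgcs1 in 21. Those not kept from 4 h to 8 h were Sqle, Dhcr7, Idi1, Mvk, Sc5d, Tm7sf2, Hsd17b7 and Acaca, and from 1 h to 4 h Cyp51, Dhcr7, Mvd, Mvk, Lss, Sc5d, Msmo1, Nsdhl, Fdps, Ggps1, Srebf1, Scap, Fasn, Fads1, Fads2 and Acss2. From 1 h to 8 h, those not kept were Idi1, Pmvk, Insig1 and Insig2. Libraries at 1 h and 4 h of batch 2 number 3 each, and low genes such as Mvk, Ebp and Lpin1 rest on few counts. The causes were not tested.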

Other observations

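Of 7 genes that move, use or store cholesterol, 2 rose and 3 fell from 1 h to 4 h, where 26% of all genes rose and 28.9% fell. Star, which carries cholesterol into mitochondria for steroid synthesis, rose at 1 h (6.11 ± 0.75 (SE), edgeR adjusted p = 1.0e-08) and again from 1 h to 4 h (1.30), and the lipoprotein receptor Scarb1 rose from 1 h to 4 h (1.66 ± 0.19 (SE), edgeR adjusted p = 2.0e-10). The esterifying enzyme Soat1 fell in that step (-1.23), with the lysosomal exporters Npc1 (-0.83) and Npc2 (-0.62). From 4 h to 8 h, 4 of the 7 rose and 2 fell (19.8% and 21.6% of all genes), and Lipe, a hydrolase that frees stored cholesterol, rose (1.99 ± 0.30 (SE), edgeR adjusted p = 5.6e-07). Of 4 tested genes of the liver X receptor list, which respond to oxysterols, 2 rose and 2 fell from 1 h to 4 h, and the lipid exporter Abca1 was among those that rose (1.26). Of 5 tested genes of the isoprenoid branches, Nus1, which acts in dolichol synthesis, was the only one called in that step (1.09).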
